A study of Oryza sativa with 6 samples.

Results

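Phosphoenolpyruvate (PEP) stands at a branch point of plant carbon metabolism, and the genes described here encode 3 enzymes that make or use it, with the regulatory protein of the last. PEP carboxylase adds bicarbonate to PEP to form oxaloacetate, which refills the citrate cycle and gives the carbon skeleton of aspartate. ATP-dependent PEP carboxykinase runs the opposite way, from oxaloacetate back to PEP, and is known for gluconeogenesis in seedlings that live on stored oil. Pyruvate, phosphate dikinase (PPDK) interconverts pyruvate and PEP, and in cereal grains it is abundant in the filling seed.

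The genes were taken from the annotation deposited with the expression table. A gene was included when its Pfam domains named PEP carboxylase (PF00311) or ATP-dependent PEP carboxykinase (PF01293), or when its NR or Swiss-Prot description held the words pyruvate, phosphate dikinase, in upper or lower case. This gave 15 of the 61955 genes in the table: 7 for PEP carboxylase, 3 for PEP carboxykinase, 3 for PPDK and 2 for the PPDK regulatory protein. The set was drawn up because OsZS_01G0527400, OsZS_10G0129500 and OsZS_03G0303200 were already known to differ between the lines. For these 3 genes the difference between the lines is therefore given as a description, with no p-value. Where any of them is counted among called genes, that count restates how the set was chosen and supports nothing about it.

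The RNA came from embryos about 15 days after flowering, with 3 samples of NIL-D (also called EG) and 3 of NIL-X (CG). Both are near-isogenic indica rice lines bred by selfing from a cross between the giant-embryo cultivar Dapeimi and a restorer line with embryos of normal size. NIL-D carries the Dapeimi allele of GIANT EMBRYO (GE), a cytochrome P450 gene with a cytosine deletion in its first exon, and NIL-X carries the segment of the restorer parent. The GEO labels call NIL-D "CMP-/-" and NIL-X "wild type", and the first of these names is not explained there. Lines bred in this way can still differ outside the GE segment. Both lines were planted in each of 3 field plots, and embryos were taken from the middle of groups of plants. By the study's methods, each plot gave an RNA sample of each line.

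Values are TPM, that is, each gene's share of all transcripts after scaling for gene length, on a total of 1000000, so that levels of different genes within a sample can be set side by side. The gene with the number given for GE, OsZS_07G0416900, was listed at 0.1, 0.13 and 0.14 TPM in NIL-D and at 0.09, 0.04 and 0.68 TPM in NIL-X. The table annotates this number as a cytosolic sulfotransferase, not a cytochrome P450, so these may not be values of GE and they do not check the labels. Between 26270 and 27709 genes were listed above 0 in a sample, and the depth behind the values is unknown. Markers were picked by words in the annotation. Of the embryo and aleurone markers, the 7 oleosin genes summed to between 34915.76 and 37927.66 TPM in NIL-D and between 34334.27 and 37286.87 TPM in NIL-X. OSH1, a homeobox gene of the embryo's shoot meristem on the same list, had between 5.83 and 9.62 TPM in NIL-D and between 14.37 and 18.4 TPM in NIL-X, without overlap. Of the endosperm markers, the 20 genes annotated as glutelin summed to between 34777.36 and 38915.35 TPM in NIL-D and between 35473.28 and 41446.74 TPM in NIL-X. Transcripts with this annotation were thus as abundant as oleosin transcripts in samples labelled embryo. Whether the samples held endosperm tissue was not tested. In samples of more than 1 cell type, fewer cells of a type and less RNA per cell cannot be told apart. Of the 39 genes on the endosperm list, 2 were at 0 in every sample (1 prolamin gene and 1 copy of granule-bound starch synthase 1). Of the 27 on the embryo and aleurone list, 1 was (a late embryogenesis abundant gene). The 13 chlorophyll a/b-binding genes of the green-tissue list summed to between 4.34 and 5.53 TPM in NIL-D and between 9.65 and 11.15 TPM in NIL-X, without overlap. All 19 genes of that list, with 4 at 0 in every sample, summed to between 230.16 and 556.29 TPM in NIL-D and between 427.59 and 629.56 TPM in NIL-X and did overlap, and of these the 6 Rubisco small subunit genes made up between 225.82 and 550.96 TPM in NIL-D and between 417.94 and 619.69 TPM in NIL-X. The part of these markers in the results was not tested. NIL-D replicate 3 stood apart from the other NIL-D samples: its 19 late embryogenesis abundant genes summed to 29493.97 TPM, against 17235.55 and 18691.65 TPM in NIL-D replicates 1 and 2 and 28555.26, 26013.37 and 26956.81 TPM in NIL-X. Without it, 611 genes were called between the lines in place of 138, so values without it are also given for members in which it stood apart.

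The study had designed primers for RT-qPCR of OsZS_03G0303200 (a PPDK gene) and OsZS_10G0129500 (a PEP carboxykinase gene), and these are shown because they mark which PPDK and which PEP carboxykinase copy it followed up by a different method. The sequences run 5′ to 3′, with no base in capitals.
OsZS_03G0303200 forward: acgacacggcgtaccgattt
OsZS_03G0303200 reverse: tgggttcctgggcacaagc
OsZS_10G0129500 forward: aggaagcaaagctcctgacacg
OsZS_10G0129500 reverse: gcttaaaggtggagtttggacgc
The primers have 20, 19, 22 and 23 bases in this order. The RT-qPCR values were not analysed here.

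Levels of the genes ran from listed zeros to 734.2 TPM, and in every sample PPDK was the highest of the 3 enzymes and PEP carboxykinase the lowest. The PPDK genes together had 646.78, 736.94 and 922.31 TPM in the NIL-D samples (replicates 1 to 3, the order used throughout), against 498.89, 576.06 and 565.55 TPM in the NIL-X samples. The PEP carboxylase genes together had 67.53, 83.1 and 79.35 TPM in NIL-D and 116.5, 105.96 and 101.41 TPM in NIL-X. The PEP carboxykinase genes together had 24.96, 20.04 and 17.0 TPM in NIL-D and 14.01, 13.41 and 12.72 TPM in NIL-X. The samples of the lines did not overlap in any of these sums, which lay higher in NIL-D for PPDK and PEP carboxykinase and lower in NIL-D for PEP carboxylase. Each sum contains 1 of the genes that chose the set, so the sums and their ratios are not separate from that choice and no test is given. Outside that choice, the tested genes of PPDK and PEP carboxykinase overlapped between the lines (OsZS_05G0315000, OsZS_04G0466800) or lay lower in NIL-D (OsZS_03G0140100). Of PEP carboxylase, OsZS_02G0143800, OsZS_08G0289700 and OsZS_09G0130300 lay lower in NIL-D without overlap, while OsZS_01G0097800 and OsZS_01G0010800 overlapped. The summed TPM of PPDK was 9.58, 8.87 and 11.6 times that of PEP carboxylase in NIL-D, and 4.28, 5.44 and 5.58 times in NIL-X.

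**Figure D1:**
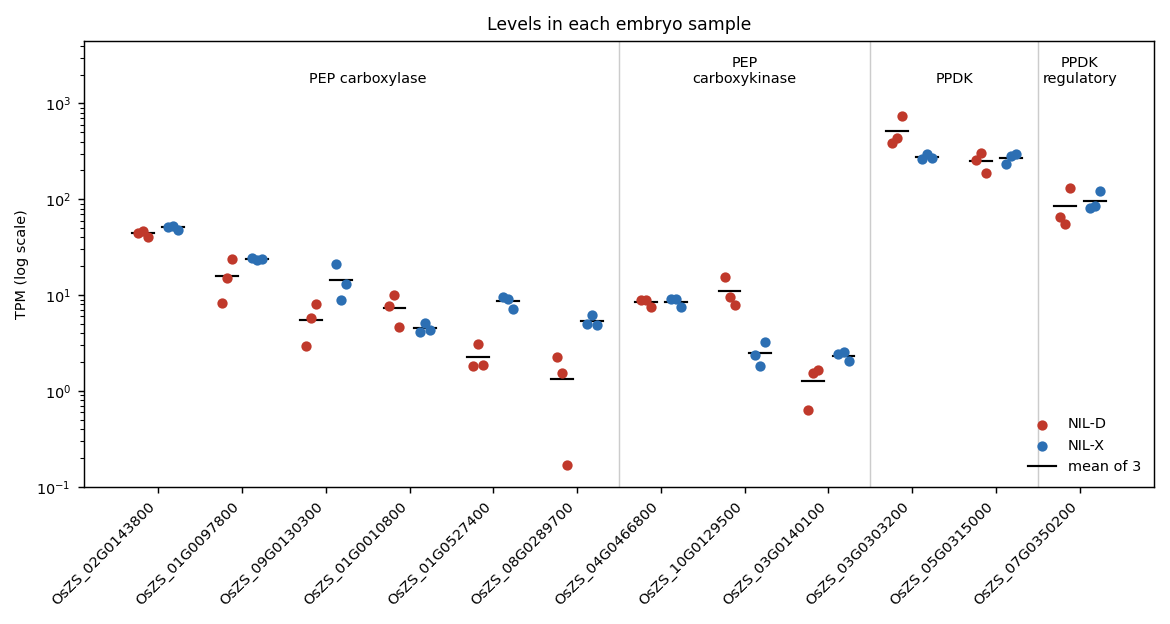
TPM (log scale) of the 12 genes with a mean of at least 0.5 TPM in each sample of NIL-D (red) and NIL-X (blue), with the mean of 3 as a bar, grouped by enzyme. Both PPDK genes lie at 188.11 TPM or above in every sample, while no gene of PEP carboxylase or PEP carboxykinase exceeds 52.89 TPM.

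The most abundant PEP carboxylase gene was OsZS_02G0143800, with the enzyme's other genes at lower levels in every sample. This gene, 3760 bp long and on chromosome 2, has as its closest Swiss-Prot entry PEP carboxylase 1 of sorghum. It had 44.3, 47.14 and 40.71 TPM in NIL-D and 51.67, 52.89 and 48.11 TPM in NIL-X. The values of the lines were close but did not overlap. On the scale of log2(TPM + 1), NIL-D over NIL-X, the fold change was -0.21 with an SE of 0.12, which did not pass the test (limma adjusted p = 0.426). Median-ratio rescaling gave -0.04 (limma adjusted p = 0.918) and quantile normalization -0.11 (limma adjusted p = 0.726). This gene held 57.9% ± 7.22 of all PEP carboxylase TPM in NIL-D and 47.2% ± 2.79 in NIL-X (SD, n = 3 per line). That sum includes OsZS_01G0527400, which chose the set, so the shares are not separate from that choice.

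OsZS_01G0527400 is the PEP carboxylase whose difference between the lines led to the set. NR describes this gene (chromosome 1, 3495 bp) as the housekeeping isozyme. It had 1.83, 3.06 and 1.89 TPM in NIL-D, against 9.6, 9.12 and 7.2 TPM in NIL-X. All NIL-D values lay far below all NIL-X values, with means of 2.26 ± 0.69 in NIL-D against 8.64 ± 1.27 in NIL-X, in TPM (SD, n = 3 each). The mean in NIL-X was 3.82 times that in NIL-D, and the log2 fold change was -1.58 (SE 0.21). This gene held 2.92% ± 0.68 of the PEP carboxylase TPM in NIL-D and 7.98% ± 0.79 in NIL-X. OsZS_02G0143800 exceeded it by 24.2, 15.4 and 21.5 times in NIL-D and by 5.38, 5.80 and 6.68 times in NIL-X.

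A further pair of PEP carboxylase genes had low levels in NIL-D. OsZS_08G0289700 (chromosome 8, 3591 bp) and OsZS_09G0130300 (chromosome 9, 2916 bp) share PEP carboxylase 2 of sorghum as their closest Swiss-Prot entry. OsZS_08G0289700 had 2.26, 1.56 and 0.17 TPM in NIL-D and 5.03, 6.21 and 4.93 TPM in NIL-X. The lines did not overlap, and the lowest value by far was that of NIL-D replicate 3. Its log2 fold change was -1.57 (SE 0.38) and did not pass the test (limma adjusted p = 0.163). When NIL-D replicate 3 was left out, the log2 fold change was -1.14 (SE 0.19) and passed (adjusted p = 0.0351), while the other alternatives gave adjusted p-values up to 0.443.

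OsZS_09G0130300 had 2.97, 5.72 and 8.01 TPM in NIL-D and 21.14, 8.85 and 13.13 TPM in NIL-X. The NIL-D samples were the lower ones, but NIL-D replicate 3 came close to NIL-X replicate 2, and the spread within each line was wide. With a log2 fold change of -1.23 and an SE of 0.40, it did not pass (limma adjusted p = 0.241). Without NIL-D replicate 3 the value was -1.49 (adjusted p = 0.0862), and over all single omissions it ran between -1.51 and -0.90, with adjusted p-values up to 0.591. Reads that suit both genes of this pair can be divided between them in the estimate of TPM, so their sum was also taken. It was 5.23, 7.28 and 8.18 TPM in NIL-D and 26.17, 15.06 and 18.06 TPM in NIL-X, again without overlap.

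OsZS_01G0097800 (chromosome 1, 3940 bp) was the second most abundant PEP carboxylase gene. It had 8.37, 15.05 and 23.75 TPM in NIL-D, against 24.39, 23.27 and 23.74 TPM in NIL-X. The 3 NIL-X samples were nearly equal, whereas NIL-D replicate 3 stood at the NIL-X level and NIL-D replicate 1 far below it. The log2 fold change of -0.68 (SE 0.33) did not pass the test (limma adjusted p = 0.375). Without NIL-D replicate 3 it was -1.02, and it missed the limit there too (adjusted p = 0.0645), while without NIL-D replicate 1 it was -0.32 (adjusted p = 0.548).

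OsZS_01G0010800 (chromosome 1, 3708 bp) was the 1 tested PEP carboxylase gene with a higher mean in NIL-D than in NIL-X. Its closest Swiss-Prot entry is PPC4 of Arabidopsis, which belongs to the bacterial type of PEP carboxylase, a type that lacks the phosphorylation site at the amino end of the plant type. It had 7.63, 9.93 and 4.65 TPM in NIL-D and 4.16, 5.15 and 4.3 TPM in NIL-X. NIL-D replicate 3 fell within the range of NIL-X. With a log2 fold change of 0.55 and an SE of 0.26, it did not pass (limma adjusted p = 0.362). Without NIL-D replicate 3 the value was 0.82 (adjusted p = 0.0572), and without NIL-D replicate 2 it was 0.34 (adjusted p = 0.584). OsZS_01G0515000, 927 bp long with the same closest entry, ran from 0.17 to 0.64 TPM in NIL-D and from 0 to 0.51 TPM in NIL-X and was not tested.

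The PEP carboxykinase gene whose difference led to the set was OsZS_10G0129500 (chromosome 10, 2357 bp). It has PCKA of Arabidopsis as its closest Swiss-Prot entry. It had 15.49, 9.64 and 7.85 TPM in NIL-D, against 2.37, 1.83 and 3.22 TPM in NIL-X. All NIL-D values lay above all NIL-X values, and NIL-D replicate 1 was the highest. The means were 11.0 ± 4.0 in NIL-D against 2.47 ± 0.70 in NIL-X, in TPM (SD, n = 3 each), a ratio of 4.44. Its log2 fold change of 1.76 (SE 0.28) is given without a test. It held 62.1%, 48.1% and 46.2% of PEP carboxykinase TPM in NIL-D and 16.9%, 13.6% and 25.3% in NIL-X. In NIL-D its TPM overlapped that of OsZS_04G0466800, the next gene in level.

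OsZS_03G0140100 (chromosome 3, 4335 bp) is closest to the maize enzyme and lay in the other direction. It had 0.64, 1.53 and 1.67 TPM in NIL-D and 2.42, 2.53 and 2.04 TPM in NIL-X. These ranges did not overlap, but the log2 fold change of -0.58 (SE 0.24) did not pass the test (limma adjusted p = 0.319). OsZS_10G0129500 had 24.2, 6.30 and 4.70 times the TPM of OsZS_03G0140100 in NIL-D, and 0.98, 0.72 and 1.58 times in NIL-X. As OsZS_10G0129500 chose the set, these ratios are not separate from that choice.

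OsZS_04G0466800 (chromosome 4, 2605 bp) carries the PEP carboxykinase domain, but its closest Swiss-Prot entry is bacterial, NR describes it as uncharacterized, and it has no KEGG entry. It had 8.83, 8.87 and 7.48 TPM in NIL-D and 9.22, 9.05 and 7.46 TPM in NIL-X. The lines overlapped almost fully, and the log2 fold change, -0.03 with an SE of 0.15, did not pass (limma adjusted p = 0.948). Its sign turned to 0.13 under median-ratio rescaling. It held 41.2% ± 5.06 of the summed TPM in NIL-D, against 64.0% ± 4.69 in NIL-X. This sum includes OsZS_10G0129500, which chose the set, so the shares are not separate from that choice.

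**Figure D2:**
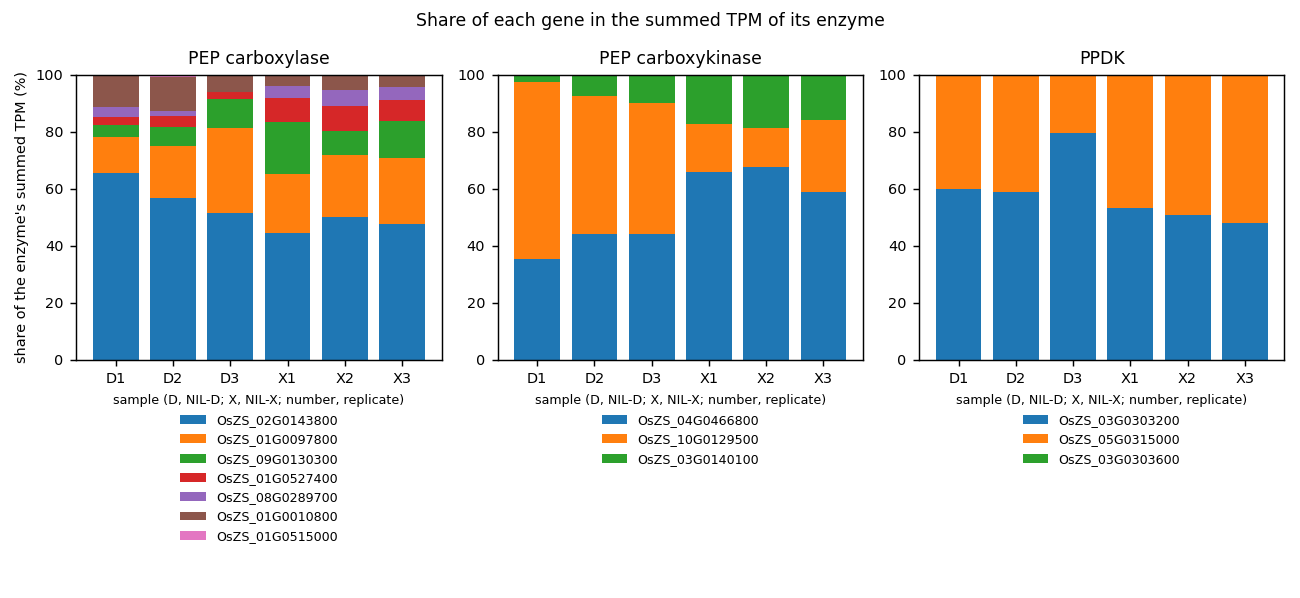
Share (%) of each gene in the summed TPM of PEP carboxylase, PEP carboxykinase and PPDK, with 1 bar per sample (D, NIL-D; X, NIL-X). In PEP carboxykinase the orange segment, OsZS_10G0129500, takes 46.2% to 62.1% in NIL-D and 13.6% to 25.3% in NIL-X. That gene chose the set, so its share restates that choice.

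PPDK was by far the most abundant of these enzymes, with 2 genes at similar levels in NIL-X. OsZS_03G0303200 (chromosome 3, 4022 bp), closest to PPDK2 of japonica rice, had 388.11, 433.61 and 734.2 TPM in NIL-D, against 265.97, 292.99 and 270.69 TPM in NIL-X. The NIL-D samples lay above the NIL-X samples, and NIL-D replicate 3 stood well above the other NIL-D samples. This gene ranked 294 among the 21500 tested genes by mean TPM. It was the remaining gene that chose the set, and its log2 fold change was 0.85 (SE 0.25), or 0.57 (SE 0.10) without NIL-D replicate 3.

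OsZS_05G0315000 (chromosome 5, 3273 bp) encodes OsPPDKB, known as the FLOURY ENDOSPERM gene of rice whose loss makes the grain chalky. It had 258.67, 303.33 and 188.11 TPM in NIL-D and 232.69, 281.0 and 294.86 TPM in NIL-X. The ranges overlapped and NIL-D replicate 3 was the lowest sample. With a log2 fold change of -0.13 and an SE of 0.21, the gene did not pass the test (limma adjusted p = 0.79). The sign turned under median-ratio rescaling, to 0.0439, and without NIL-D replicate 3, to 0.0628 (SE 0.14, adjusted p = 0.809). The 17 prolamin genes of the endosperm list summed to 4777.76, 6998.41 and 3053.02 TPM in NIL-D and to 4939.46, 11341.17 and 12899.72 TPM in NIL-X. Granule-bound starch synthase 1, another endosperm marker, had 201.19, 310.75 and 253.03 TPM in NIL-D and 217.9, 406.4 and 431.51 TPM in NIL-X. The part of endosperm RNA, and of what set NIL-D replicate 3 apart, in the PPDK values was not tested.

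The TPM of OsZS_03G0303200 was 1.5, 1.43 and 3.90 times that of OsZS_05G0315000 in NIL-D, and 1.14, 1.04 and 0.92 times in NIL-X. No NIL-D sample fell within the range of NIL-X, and the value of NIL-D replicate 3 set it apart from the other NIL-D samples. As OsZS_03G0303200 chose the set, this ratio is not separate from that choice. OsZS_03G0303600, a 510 bp gene with a PPDK2 hit but no Pfam domain, was listed at 0 in NIL-D and at 0.23, 2.07 and 0 TPM in NIL-X, too low to be tested.

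The PPDK regulatory protein is a bifunctional enzyme that switches PPDK off by phosphorylation and on again by removing the phosphate. Its gene OsZS_07G0350200 (chromosome 7, 4312 bp) had 65.77, 55.81 and 130.8 TPM in NIL-D and 80.65, 85.85 and 121.67 TPM in NIL-X. In both lines replicate 3 was the highest sample and the lines overlapped. The log2 fold change, -0.27 with an SE of 0.34, did not pass (limma adjusted p = 0.725). Without NIL-D replicate 3 the log2 fold change was -0.63 (SE 0.20, adjusted p = 0.119), without NIL-D replicate 2 it was -0.03 (adjusted p = 0.98), and without NIL-X replicate 3 it was -0.09 (adjusted p = 0.94). OsZS_07G0350300, the next gene by number with the same Swiss-Prot hit but no Pfam domain, stayed between 0.15 and 0.21 TPM in NIL-D and between 0.06 and 0.15 TPM in NIL-X.

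Differences were tested with limma across all 21500 genes with a mean of at least 0.5 TPM, of which 12 belonged to the set and 3 fell below the minimum. To be called, a gene needed an adjusted p below 0.05 and a log2 fold change of 1 or more in either direction. Of the 12 members, 1 was called (OsZS_01G0527400, lower in NIL-D), beside 0.642% of all tested genes in either direction and 0.377% lower in NIL-D, and since this gene chose the set nothing is read from that count. In the fit without NIL-D replicate 3, 3 members were called (OsZS_01G0527400, OsZS_08G0289700 and OsZS_10G0129500), beside 2.84% of all genes tested there, and without any other single sample 0 were called. Of the 9 members taken by annotation alone, 0 were called, and 3 had an unadjusted p-value below 0.05, beside 15.6% of all tested genes. The 3 values of each line did not overlap in 7 of the 12 members, of which 2 had their NIL-D values above and 5 below NIL-X, and this count includes all 3 genes that chose the set, among them both that lay above. Of the 9 members taken by annotation alone, 4 did not overlap, 0 with higher and 4 with lower values in NIL-D. Over all tested genes, 24.3% did not overlap, 4.53% higher and 19.7% lower in NIL-D, and nothing is read from these counts. The median log2 fold change was -0.24 over the 12 members and -0.15 over all tested genes.

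**Figure D3:**
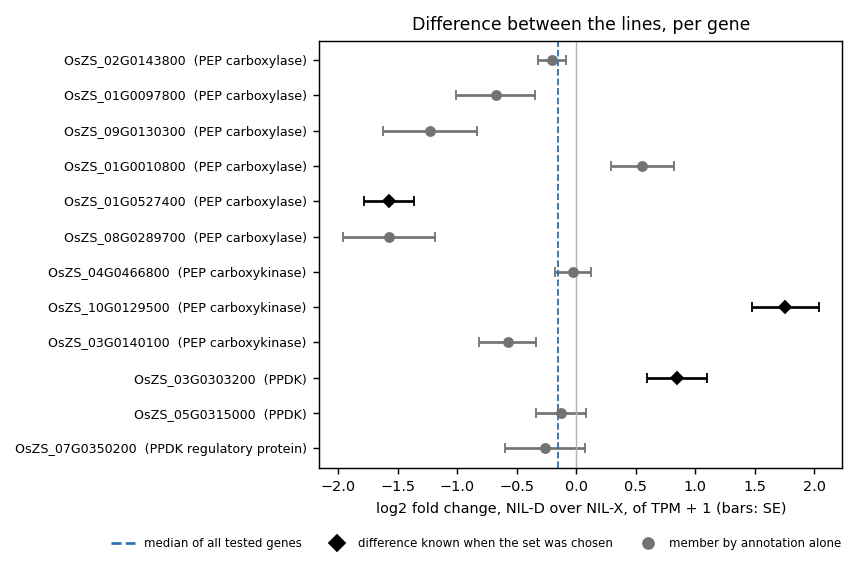
Log2 fold change of TPM + 1 (NIL-D over NIL-X, bars SE) for the 12 tested members, with the median of all tested genes (-0.15) as a dashed line. Of the 6 PEP carboxylase genes, 5 lie below 0, beside 15030 of all 21500 tested genes, and nothing is read from this count. OsZS_10G0129500 lies farthest to the right at 1.76. It chose the set, as did OsZS_01G0527400 among the 5.

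The genes were also put in order of mean TPM within each line. In NIL-D the order began with OsZS_03G0303200, OsZS_05G0315000, OsZS_07G0350200, OsZS_02G0143800 and OsZS_01G0097800, and in each of these 4 steps the ranges of neighbours were separate. Below OsZS_01G0097800, each gene overlapped the next lower gene down to OsZS_07G0350300. In NIL-X the order began with the same genes, but OsZS_03G0303200 and OsZS_05G0315000 overlapped. OsZS_01G0527400 was rank 10 of 15 in NIL-D and rank 7 in NIL-X, where it overlapped OsZS_09G0130300 and OsZS_04G0466800 next to it. OsZS_10G0129500 was rank 6 in NIL-D and rank 11 in NIL-X. Both OsZS_01G0527400 and OsZS_10G0129500 chose the set, so their change of rank restates that choice.

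For each of the 12 tested members, the 10 tested genes on either side in the order of gene numbers were examined, and 0 of the 20 neighbours of any member were called by limma, with 1 to 6 of them at an unadjusted p-value below 0.05, beside 15.6% of all tested genes. Between 3 and 9 of the 20 neighbours had values that did not overlap between the lines, the 9 around OsZS_09G0130300, beside 24.3% of all tested genes.

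Of the enzymes that share substrates with this set, 9 lists were examined by enzyme and 2 by KEGG pathway, and the lists share some genes. The 6 malic enzyme genes, which turn malate into pyruvate, had a median log2 fold change of -0.23 with 0 called by limma. NADP-dependent malic enzyme OsZS_01G0512700 was the most abundant, with 478.08, 521.5 and 687.21 TPM in NIL-D and 677.28, 679.23 and 654.23 TPM in NIL-X, overlapping ranges (adjusted p = 0.493). Of the 10 tested malate dehydrogenase genes, 9 pyruvate kinase genes and 5 enolase genes, 0 were called, and the medians were 0.15, 0.05 and 0.15. Cytoplasmic malate dehydrogenase OsZS_10G0317400, which interconverts oxaloacetate and malate, had 685 ± 251 TPM in NIL-D against 599 ± 73.8 in NIL-X (limma adjusted p = 0.87). Cytosolic pyruvate kinase OsZS_04G0541900, which turns PEP into pyruvate, had 437 ± 64.2 TPM in NIL-D against 456 ± 71.5 in NIL-X (limma adjusted p = 0.89). Enolase OsZS_10G0089100, which makes PEP in glycolysis, had 2989 ± 924 in NIL-D against 2217 ± 460 in NIL-X, in TPM (SD, n = 3 each, limma adjusted p = 0.565). An unadjusted p-value below 0.05 was found for 2 malic enzyme genes, 1 malate dehydrogenase gene and 0 genes of pyruvate kinase and enolase. Over all tested genes the share was 15.6%.

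PEP carboxylase kinase phosphorylates plant-type PEP carboxylase and makes it less sensitive to malate. Its most abundant gene, OsZS_02G0435600, had 36.44, 12.36 and 12.62 TPM in NIL-D and 25.4, 3.22 and 5.63 TPM in NIL-X. In both lines replicate 1 was the highest, and the log2 fold change of 1.07 (SE 0.73) did not pass the test (limma adjusted p = 0.508). The plastid PEP/phosphate translocator OsZS_09G0114500 had 234.83, 191.9 and 76.02 TPM in NIL-D and 124.08, 120.4 and 142.6 TPM in NIL-X (adjusted p = 0.808), with NIL-D replicate 3 the lowest sample. Of the 3 kinase and 3 translocator genes, 0 were called and 0 had an unadjusted p-value below 0.05, beside 15.6% of all tested genes.

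Aspartate aminotransferase, which turns oxaloacetate into aspartate, was highest for the cytoplasmic form OsZS_01G0529800. It had 1119.3, 1181.71 and 888.98 TPM in NIL-D and 571.86, 644.75 and 724.64 TPM in NIL-X. These ranges did not overlap, with a log2 fold change of 0.71 (SE 0.19) that did not pass the test (limma adjusted p = 0.182). Of the 5 genes of this list 0 were called and 2 had an unadjusted p-value below 0.05. Without NIL-D replicate 3 there were 2 called genes, beside 2.84% of all genes tested in that fit. Beta carbonic anhydrase OsZS_09G0275700, of the enzymes that make bicarbonate, had 33.5 ± 11.2 TPM in NIL-D against 40.6 ± 1.75 in NIL-X (limma adjusted p = 0.556). Of the 2 tested carbonic anhydrase genes 0 were called, with 1 below an unadjusted p of 0.05. The pyruvate dehydrogenase complex, which turns pyruvate into acetyl-CoA, had 0 called of 15 genes by limma, 1 with an unadjusted p-value below 0.05. Its most abundant gene OsZS_06G0129500 had 211 ± 34.2 in NIL-D against 203 ± 7.71 in NIL-X, in TPM (SD, n = 3 each). Beside the unadjusted counts of these lists, 15.6% of all tested genes had an unadjusted p-value below 0.05.

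Over whole pathways, the KEGG list for pyruvate metabolism had 71 tested genes outside the set, 1 of them called, higher in NIL-D, beside 0.265% of all tested genes called in that direction. This gene, OsZS_02G0528500, annotated as a mitochondrial aldehyde dehydrogenase, had 229 ± 26.4 TPM in NIL-D against 81.6 ± 17.1 in NIL-X (limma adjusted p = 0.0293). The count of called genes on this list was 2 without NIL-D replicate 3, beside 2.84% of all genes tested in that fit, and 0 when any other single sample was left out. The most abundant gene of the list, lactoylglutathione lyase OsZS_08G0084200, had 714 ± 159 TPM in NIL-D against 1061 ± 110 in NIL-X (adjusted p = 0.28). The KEGG list for carbon fixation in photosynthetic organisms had 58 tested genes outside the set, 0 of them called by limma. Of these, 15 had an unadjusted p-value below 0.05, beside 15.6% of all tested genes. Its most abundant gene was cytosolic glyceraldehyde-3-phosphate dehydrogenase OsZS_02G0413200, with 6523 ± 579 TPM in NIL-D against 4755 ± 998 in NIL-X (adjusted p = 0.457). The values of the lines did not overlap in 19 of these 58 genes, 10 higher and 9 lower in NIL-D, beside 24.3% of all tested genes (4.53% higher and 19.7% lower).

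**Figure D4:**
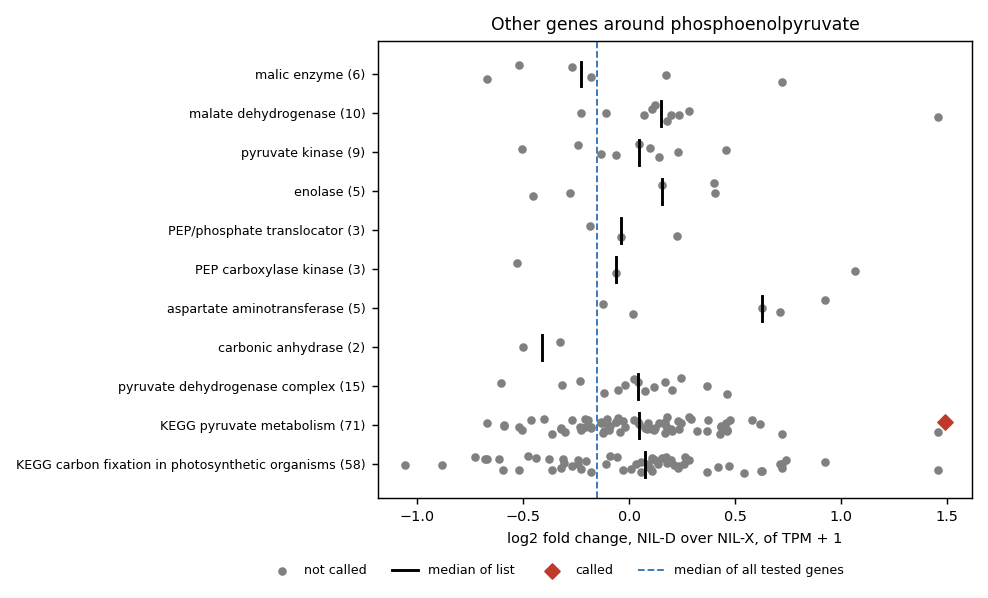
Log2 fold change of TPM + 1 (NIL-D over NIL-X) of the tested genes in 11 lists of related genes, with the number of genes in brackets, the median of each list as a bar and the median of all tested genes (-0.15) as a dashed line. The 1 called gene is OsZS_02G0528500 at 1.49, and the remaining points are not called.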

How the data were processed

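Libraries had been made from total RNA of embryos with an Illumina TruSeq kit and sequenced as paired ends. According to the study's methods, the authors used SeqPrep and Sickle for trimming, Cufflinks for assembly, TopHat for mapping to the rice genome ZS97RS3 and RSEM for expression. The GEO notes list Bowtie 0.12.2 and mm8, a mouse build that cannot apply to rice. The authors deposited TPM with 2 decimals, which add up to 1000000 per sample, so no read counts or counting errors can be had and small values are coarse. The deposited means of TPM per line equal the means of the samples. Strandedness is not given in the sources used here. RSEM divides reads among similar genes, so values of close copies are uncertain.

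Samples were grouped by the strain label. Genes averaging 0.5 TPM or more were fitted as log2(TPM + 1) with limma 3.58.1 in R 4.3.3 (lmFit, eBayes with trend), with Benjamini-Hochberg adjustment over all tested genes. The limits for a call (adjusted p below 0.05, log2 fold change of 1 or more either way) are those of the study's methods, whose count test needs counts. The fit was tested on simulated data. Fold changes on this scale understate the change of low genes. With 3 samples against 3 an exact permutation test cannot go below p = 0.1 and was not used. Levels, sums, shares and ratios were computed with Python 3.11.15 and pandas 2.3.3, and drawn with matplotlib 3.10.9. Protein accessions matched 4 of the 15 members to RefSeq, which gave no further names.

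All members were accounted for, with those at 0.5 TPM or more given in all samples. From each related list, the most abundant gene and up to 2 called genes were named. Members and lists were chosen with earlier results of these data known. Alternatives were a pseudocount of 0.1, no filter, a mean of at least 5 TPM, rescaling by median ratios, normalizing by quantiles, dropping the eBayes trend, a block for the replicate number, and leaving out each sample. The labels do not tie replicate numbers to field plots, and sequencing batches are not given in the sources used here.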

Additional observations from a re-analysis of the deposited data

How the results depend on the processing

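Over all genes, 138 were called, against 57 with a mean of at least 5 TPM and between 37 and 611 with 1 sample left out, the highest without NIL-D replicate 3. Members called numbered 1 (beside 0.642% of all tested genes), against 0 without a filter (0.275%) or with a mean of at least 5 TPM (0.405%). They numbered 2 under median-ratio rescaling (0.637%) and under quantile normalization (0.586%). These 2 were OsZS_01G0527400 and OsZS_10G0129500, which both chose the set. With 1 sample left out, members called numbered 3 without NIL-D replicate 3 (2.84%) and 0 without any other sample (0.173% to 0.307%). Nothing is read from these counts. With the replicate number as a block, 43 genes were called over all (0.2%), 0 members and 0 genes of KEGG pyruvate metabolism. The main fit had no replicate term. By the study's methods each plot gave a sample of each line, but the labels do not tie replicate numbers to plots. Deviations from the line means correlated at 0.0164, 0.202 and 0.199 between the lines for replicates 1 to 3. Unmatched replicates were not set beside them, so these values do not decide whether the numbers are pairs. The all-gene median shifted by 0.146 (median-ratio) and 0.14 (quantile) on the log2 scale, and the split changed of calls to 75 higher and 62 lower and to 72 higher and 54 lower, against 57 higher and 81 lower.

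Under both rescalings the called genes were 1 for malate dehydrogenase, 2 for KEGG pyruvate metabolism and 1 for KEGG carbon fixation. Over all tested genes, 0.637% were called under median-ratio rescaling and 0.586% under quantile normalization. These lists share genes, so 1 gene can be counted on more than 1 list. OsZS_12G0142600 is on each of them, with a log2 fold change of 1.46 in the main fit (limma adjusted p = 0.0834). No filter gave 0 for KEGG pyruvate metabolism, beside 0.275% of all genes tested there. Leaving out 1 sample gave 0 to 1 for malate dehydrogenase, 0 to 2 for aspartate aminotransferase, 0 to 2 for KEGG pyruvate metabolism and 0 to 3 for KEGG carbon fixation. Each was highest without NIL-D replicate 3, where 2.84% of all tested genes were called. The cause was not tested.

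The log2 fold change of OsZS_04G0466800 was 0.13 under median-ratio rescaling, 0.15 under quantile normalization and between -0.11 and 0.0458 with 1 sample left out. That of OsZS_05G0315000 was 0.0439 under median-ratio rescaling and between -0.28 and 0.0628 with 1 sample left out, the highest without NIL-D replicate 3. That of OsZS_01G0527400 was -1.92 with a pseudocount of 0.1. The summed TPM of PEP carboxykinase in NIL-X was 12.6 under median-ratio rescaling, against 13.4. Of 154 log2 fold changes of members under alternatives, 7 changed sign, those of OsZS_04G0466800 and OsZS_05G0315000 named here.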
